A study of Mus musculus with 24 samples.

Results

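The genes described here are those of the major histocompatibility complex (MHC) and its antigen presentation machinery, in liver cells and livers of mice that lacked BMP9 and BMP10 in hepatic stellate cells (HSCs) or Smad4 in blood cells. They were chosen by name: 44 entries whose symbol starts with H2-, plus Cd74, B2m, Tap1, Tap2, Tapbp, Ciita, Nlrc5, Psmb8 and Psmb9, which gave 53 of the 48820 gene entries in each of the 4 count tables. Of these, 14 belong to class II, 38 to class I (31 heavy chain genes or pseudogenes and 7 machinery genes), and 1, H2-Ke6, is an enzyme gene that carries the H2- prefix by its location and belongs to neither. In the GENCODE annotation of GRCm38, 49 of the 53 lie on chromosome 17 between 33915899 and 37483552, and B2m lies on chromosome 2, Nlrc5 on chromosome 8, Ciita on chromosome 16 and Cd74 on chromosome 18.

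RNA sequencing was carried out on 24 libraries in 8 groups of 3, with all mice labelled C57BL/6. Liver macrophages, sorted as CD45+Ly6C-F4/80+CD64+ cells, came from Bmp9/10-HSC-KO mice and BMP9/10 control mice and, as a separate pair of groups, from Smad4FF cKO and Smad4FF mice. Endothelial cells (ECs), sorted as CD45-CD31+ cells, and whole livers came from Bmp9/10-HSC-KO and control mice. Sorted cells were from mice aged 8 to 10 weeks and livers from mice aged 12 weeks. In the Bmp9/10-HSC-KO mice (HSC-KO below) floxed Gdf2, which encodes BMP9, and floxed Bmp10 were deleted with Lrat-Cre, which acts in stellate cells, so that macrophages and ECs are not the cells targeted. The Smad4FF cKO mice (Smad4 cKO below) carried floxed Smad4 and Vav1-Cre, which acts in all blood cells and not in macrophages alone. The labels name the control genotypes no further than given here, and Smad4FF controls keep the floxed alleles by their name.

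MHC class II molecules display peptides from endosomes to CD4+ T cells and are made mainly by dendritic cells, B cells and macrophages, with lower levels in some endothelia. Their alpha and beta chains assemble with the invariant chain Cd74, exchange its remnant for a peptide with the help of H2-DM, which H2-O inhibits, and are transcribed under the coactivator Ciita. MHC class I molecules pair a heavy chain with B2m and display cytosolic peptides to CD8+ T cells on almost all cells, with peptides cut by the immunoproteasome, carried by the Tap1 and Tap2 transporter and loaded with the help of tapasin (Tapbp). Nlrc5 is the coactivator of class I genes.

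The class II genes are known for an upstream arrangement of an X box followed by a Y box, on which the Ciita complex assembles. Upstream sequences of some members are shown here, and their part in the levels below was not tested. The RefSeq promoter entries (GRCm38.p6, 300 bases, from 250 before to 50 after the start) held 9 entries for 8 class II genes and 29 entries for 27 class I genes. Among the members without an entry were H2-Ab1, Cd74, Ciita, Nlrc5 and Tap2. The letters searched on both strands were AGNAAC for the X box core, ATTGG for the Y box and the run GAAA, NN, GAAA for an interferon-stimulated response element, beside TTCNNNGAA for a gamma-activated sequence, and matches stand in capitals in the stretches printed 5′ to 3′ on the gene's strand.
H2-Eb1, chr17:34305717-34305866, plus strand: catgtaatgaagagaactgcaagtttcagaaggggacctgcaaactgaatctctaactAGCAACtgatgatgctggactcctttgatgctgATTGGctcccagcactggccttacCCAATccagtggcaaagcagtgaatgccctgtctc
H2-Ob, chr17:34238755-34238904, plus strand: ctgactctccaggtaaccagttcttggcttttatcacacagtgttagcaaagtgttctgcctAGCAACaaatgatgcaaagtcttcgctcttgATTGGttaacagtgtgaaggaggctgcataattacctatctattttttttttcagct
H2-Oa, chr17:34092229-34092340, plus strand: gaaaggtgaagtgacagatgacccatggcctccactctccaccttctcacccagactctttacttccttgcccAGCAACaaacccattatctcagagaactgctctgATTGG
H2-Aa, chr17:34287824-34287973, minus strand: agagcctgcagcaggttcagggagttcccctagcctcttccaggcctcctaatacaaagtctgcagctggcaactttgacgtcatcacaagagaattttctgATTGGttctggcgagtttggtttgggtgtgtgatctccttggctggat
B2m, chr2:122147537-122147686, plus strand: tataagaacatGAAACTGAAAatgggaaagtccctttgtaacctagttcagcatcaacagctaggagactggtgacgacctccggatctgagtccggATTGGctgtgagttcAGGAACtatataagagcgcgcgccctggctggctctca
H2-K1, chr17:34000348-34000497, minus strand: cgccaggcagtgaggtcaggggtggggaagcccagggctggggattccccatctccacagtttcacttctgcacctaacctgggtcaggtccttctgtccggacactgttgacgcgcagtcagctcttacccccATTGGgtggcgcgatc

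The Y box letters were in 8 of 9 class II entries and 25 of 29 class I entries, against 37.4% of the 32851 entries of all genes, and the X box letters in 6 of 9 and 16 of 29 against 48.1%. An X box match followed on the same strand by a Y box match, with 31 to 34 bases from the start of one to the start of the other, stood in 5 of the 9 class II entries (H2-Oa, H2-Ob, H2-DMb1, H2-Eb1 and H2-Eb2), in 0 of 29 class I entries and in 0.113% of all entries. This spacing was chosen after the class II stretches were seen, so the count is a description. Of the printed stretches, H2-Aa holds the Y box letters but no match to AGNAAC, and B2m holds the response element letters, which were in 0 of 9 class II entries, 3 of 29 class I entries (B2m, H2-T22 and H2-T23) and 3.44% of all entries. The gamma-activated sequence letters were in 1 class II entry (H2-DMb2), 3 class I entries and 8.3% of all entries. A match is no evidence of binding, and these letters are not the only forms of the boxes.

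Depth was 60911527 to 110879155 counts per library, and 3 counts, the floor used here for a gene with no count, corresponded to 0.0258 to 0.0524 CPM, the count scaled to the size of the library. Levels below are CPM after TMM scaling within the 6 libraries of a comparison, and log2 fold changes (log2 FC) are the mutant over its control from edgeR's quasi-likelihood test, with the standard error (SE) and a Benjamini-Hochberg adjusted p over all genes tested. A gene was called at adjusted p below 0.05, and with 3 libraries against 3 an exact permutation test of a single gene could not go below 0.1. The replicates are described as biological, and p-values measure the spread between these libraries. Transcripts of the deleted genes were checked first: Gdf2 and Bmp10 were lower in HSC-KO livers (log2 FC -2.55 and -4.07, adjusted p 0.0135 and 0.00657) and Smad4 was lower in Smad4 cKO macrophages (log2 FC -1.39, adjusted p 0.00234). In ECs, which are not the cells targeted, Gdf2 was also lower, at 2.94, 1.75 and 1.03 CPM in controls and 0, 0.0698 and 0 CPM in HSC-KO (adjusted p 0.00752). The 4 stellate cell markers in the same libraries summed to 99.9, 68.1 and 23.2 CPM in controls and 29.8, 38.4 and 25.03 CPM in HSC-KO, with Lrat called lower, and their part in the Gdf2 value was not tested. The 6 Kupffer cell markers were lower in both macrophage comparisons, with a summed level of 28279 to 29856 CPM in BMP9/10 controls and 50.02 to 249 CPM in HSC-KO, and of 24054 to 30807 CPM in Smad4FF controls and 832 to 950 CPM in Smad4 cKO. The macrophage and EC groups of the HSC-KO study and the HSC-KO livers mixed male and female mice by Xist and Ddx3y, and 3 mice gave both a macrophage and an EC library. In such bulk samples a change in the share of a cell type cannot be told apart from a change in RNA per cell.

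In macrophages from HSC-KO mice, the class II genes stood higher than in controls, from the classical chains to their chaperones and coactivator. Of 11 class II genes tested, 10 were called, all higher. Every knockout library lay above every control in these 10 of the 11 tested, as was so for 20.7% of all genes tested. Among all 16337 genes tested, 19.2% were called and 9.29% were called higher. Of the 10, 7, which leaves out H2-DMa, H2-DMb1 and H2-DMb2, also passed a log2 FC of 1, which 6.32% of all genes did in this direction. The median log2 FC of the class II genes was 1.93 and that of all genes 0.04. Summed over the class, the level was 14629, 16082 and 21274 CPM in controls and 56632, 67363 and 61447 CPM in HSC-KO, so the class went from 1.67% to 6.37% of all counts.

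The invariant chain gene Cd74 was at 5189, 5688 and 7490 CPM in controls and at 19132, 19762 and 20208 CPM in HSC-KO macrophages (log2 FC 1.69 ± 0.19 SE, adjusted p 9.68e-04). H2-Ab1 (chr17:34257689-34269419), the beta chain of the I-A molecule, was at 5324, 5965 and 7852 CPM against 21797, 29020 and 23114 CPM (log2 FC 1.95 ± 0.22 SE, adjusted p 9.47e-04). Its alpha chain H2-Aa (chr17:34282744-34287823) was at 1830, 1966 and 2710 CPM against 7711, 8338 and 8723 CPM (log2 FC 1.93 ± 0.19 SE, adjusted p 5.74e-04). Every knockout library lay above every control library for these 3 genes, and among the controls replicate 3 was the highest each time. H2-Eb1 (chr17:34305867-34316674), the I-E beta chain whose alpha partner is not made in C57BL/6 mice, was at 1099, 1204 and 1607 CPM against 5779, 7778 and 6895 CPM (log2 FC 2.39 ± 0.21 SE, adjusted p 3.3e-04). For the alpha to beta proportion of I-A, H2-Aa per H2-Ab1, each per kilobase of exon, was 0.232, 0.223 and 0.233 in controls and 0.239, 0.194 and 0.255 in HSC-KO, so that the HSC-KO libraries lay on both sides of the controls. H2-Eb1 per H2-Ab1 on the same scale went from 0.2699 ± 0.00309 to 0.366 ± 0.0243 (SD, n = 3), with no overlap between the groups.

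The genes of peptide loading moved less than the chains they serve, while the inhibitor genes moved as much. H2-DMa (chr17:34119541-34139101), the alpha chain of the loading factor, was at 692, 726 and 879 CPM in controls and at 1069, 1246 and 1256 CPM in HSC-KO (log2 FC 0.64 ± 0.15 SE, adjusted p 0.0209). Its beta chains had log2 FCs of 0.93 ± 0.18 SE for H2-DMb1 (422, 456 and 644 CPM against 900, 1020 and 985 CPM, adjusted p 0.0107) and 0.80 ± 0.17 SE for H2-DMb2 (31.8, 32.2 and 45.2 CPM against 61.3, 57.4 and 71.2 CPM, adjusted p 0.0162). H2-DMb1 and H2-DMb2 share 22.65% and 21.19% of their 50-base exon stretches with another member, so their reads can be split between them. These are the class II calls that a single library decided: H2-DMa was not called without control replicate 1 or 2 or HSC-KO replicate 2 or 3 (adjusted p up to 0.0891), H2-DMb1 without control replicate 2 (0.0522), and H2-DMb2 without control replicate 2 or HSC-KO replicate 3 (up to 0.0659). The genes of the inhibitor H2-O were lower in level: H2-Ob (chr17:34238903-34254414) was at 11.8, 11.7 and 14.99 CPM against 48.0, 59.5 and 56.9 CPM (log2 FC 2.09 ± 0.16 SE, adjusted p 1.99e-04). H2-Oa (chr17:34092340-34095234) was at 1.62, 1.55 and 0.577 CPM against 4.57, 5.53 and 9.44 CPM (log2 FC 2.37 ± 0.47 SE, adjusted p 0.0114).

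Set against each other per kilobase of exon, H2-DMa per H2-Aa went from 0.394 ± 0.0317 in controls to 0.159 ± 0.00596 in HSC-KO macrophages (SD, n = 3). H2-DMb1 per H2-Ab1 went from 0.121 ± 0.00423 to 0.0606 ± 0.00609, and H2-Ob per H2-DMb1 from 0.00801 ± 0.000733 to 0.0176 ± 0.000850. The groups did not overlap in any of these 3 ratios, so that per class II chain there was less DM and per DM more of its inhibitor transcript, though H2-Ob stayed far below H2-DMb1. Ciita (chr16:10480059-10528418), the coactivator, was at 26.5, 30.4 and 30.9 CPM in controls and at 130, 74.4 and 125 CPM in HSC-KO (log2 FC 1.91 ± 0.22 SE, adjusted p 0.00107), with HSC-KO replicate 2 the lowest of its group. By level per kilobase in HSC-KO the order was Cd74 (11734 CPM per kb), H2-Ab1 (9596), H2-Eb1 (3507), H2-Aa (2174), H2-DMb1 (576), H2-DMa (345), H2-DMb2 (36.2), Ciita (11.5), H2-Ob (10.2) and H2-Oa (4.63). In this order Cd74 and H2-Ab1 lay apart in HSC-KO replicates 1 and 3 and close in replicate 2, and Ciita and H2-Ob overlapped. The class II gene not called was H2-Eb2, named here after its values were seen, at 0.106, 0.0824 and 0.332 CPM against 0.273, 1.08 and 2.03 CPM (log2 FC 2.71 ± 0.90 SE, adjusted p 0.0745, and 0.0131 by DESeq2).

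**Figure D1:**
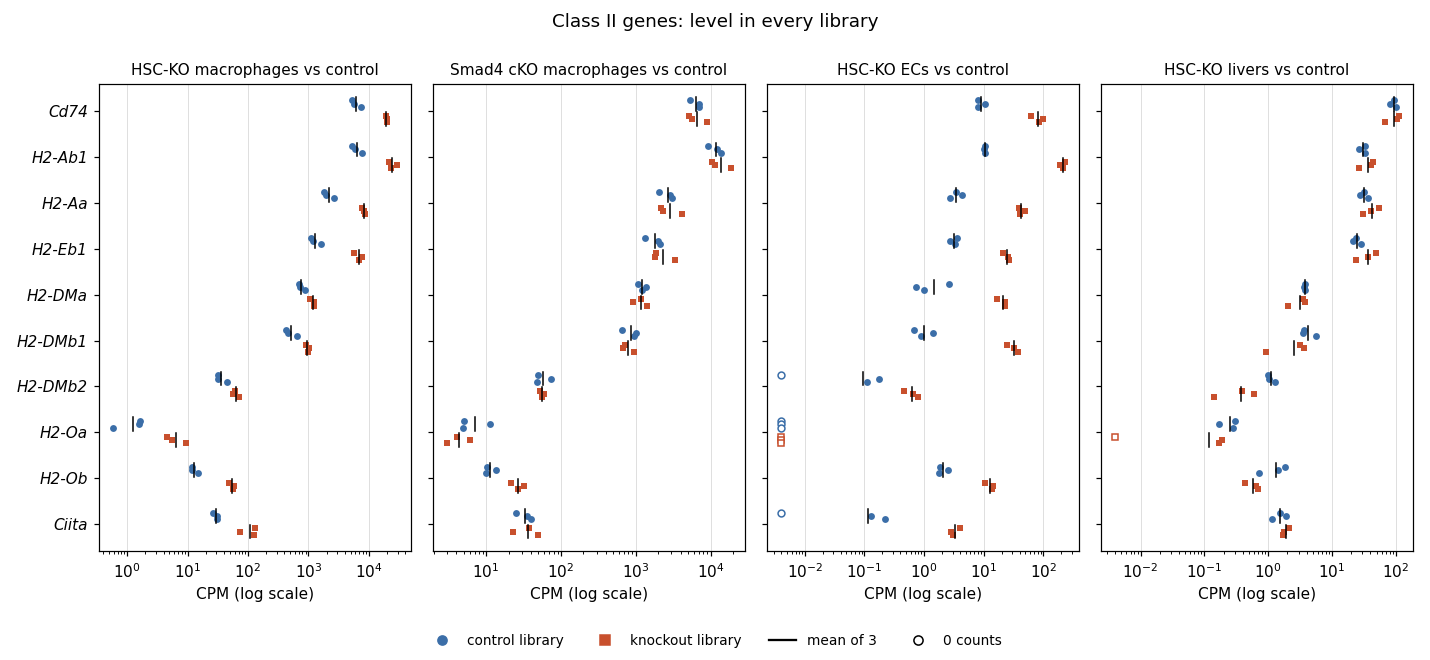
Level of 10 class II genes in every library, as TMM-scaled CPM on a log axis, with 1 panel per comparison, circles for control libraries, squares for knockout libraries, a bar for the mean of 3 and open symbols at the left edge for 0 counts. In HSC-KO macrophages and in HSC-KO ECs the squares lie to the right of the circles, except H2-Oa in ECs with 0 counts in all 6 libraries, with Cd74 at 19132 CPM or more in the former and 99.8 CPM or less in the latter, while in Smad4 cKO macrophages and HSC-KO livers they mostly overlap.

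Markers of other cells that make class II molecules were measured in the same libraries. The summed level of 8 dendritic cell markers ran from 51.7 to 67.8 CPM in the controls and from 39.9 to 70.3 CPM in the knockout, with 2 of 8 called higher and 1 lower and a median log2 FC of 1.62, against 0.04 over all genes tested. The 1 called lower, Batf3, made most of the sum, at 39.3 to 60.2 CPM in controls and 18.1 to 30.998 CPM in HSC-KO, and the means of the other 7 were higher in HSC-KO. Of the 2 called higher, Xcr1 was at 1.01 to 1.501 CPM in controls and 3.96 to 14.6 CPM in HSC-KO, and Siglech at 0.0709 to 0.341 and 4.58 to 6.20 CPM. The 6 B cell markers summed to 65.0 to 106 and 164 to 197 CPM, of which Cd79b, at 74.9, 52.1 and 95.3 CPM against 160, 193 and 172 CPM, was the 1 called, while the median log2 FC of the 6 was -0.68. For T and NK cells, 5 of 6 markers were higher, with sums of 5.83 to 15.4 CPM and 39.1 to 133 CPM. The 4 monocyte markers summed to 90.4 to 185 CPM in controls and 40.1 to 99.95 CPM in the knockout, with Ccr2 (4.07 to 9.49 CPM and 33.2 to 84.1 CPM) and Ly6c2 called higher, Plac8 (80.3 to 181 CPM and 3.09 to 12.5 CPM) called lower and Chil3 not tested. The part of these cells in the class II levels was not tested.

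In macrophages lacking Smad4 the class II genes were mostly not called, and H2-Ob alone was higher. Of the same 11 class II genes 1 was called, against 7.74% of the 17517 genes tested and 3.71% called higher, and the median log2 FC was 0.13. H2-Ob was at 10.2, 13.7 and 10.0 CPM in Smad4FF controls and 21.7, 31.6 and 26.8 CPM in Smad4 cKO (log2 FC 1.24 ± 0.20 SE, adjusted p 0.0103), and leaving out Smad4FF replicate 3 gave an adjusted p of 0.0653. Cd74 was at 5249, 6960 and 6926 CPM against 5220, 5646 and 8914 CPM (log2 FC 0.05 ± 0.23 SE, adjusted p 0.932). H2-Ab1 was at 9338, 12132 and 14002 CPM against 10590, 11611 and 18663 CPM (log2 FC 0.20 ± 0.25 SE, adjusted p 0.711). The groups overlapped in both genes, and Smad4 cKO replicate 3 was the highest library for them, as it was for H2-Aa, H2-Eb1 and Ciita. The log2 FCs of those 3 were 0.13, 0.37 and 0.13 with adjusted p from 0.524 to 0.851. H2-DMa, H2-DMb1 and H2-DMb2 had log2 FCs of -0.06, -0.15 and -0.01. H2-Oa was at 4.996, 11.4 and 4.90 CPM against 4.05, 6.15 and 2.98 CPM (log2 FC -0.69, adjusted p 0.398). The class summed to 24871 ± 4527 CPM in Smad4FF and 27531 ± 8745 CPM in Smad4 cKO (SD, n = 3). Among markers in these libraries, the dendritic cell sum was 130 to 141 CPM in controls and 68.0 to 76.1 CPM in Smad4 cKO. Of the 8 dendritic cell markers 1 was called higher and 2 lower, with a median log2 FC of -0.89. The B cell sum was 101 to 158 CPM in controls and 215 to 222 CPM in Smad4 cKO. The B cell sum was carried by Cd79b, the 1 of 6 called (68.8 to 114 CPM and 181 to 203 CPM), the other 5 having lower means in Smad4 cKO, and the median log2 FC of the list was -0.53. The 4 monocyte markers summed to 131 to 165 CPM in controls and 8.54 to 22.4 CPM in Smad4 cKO, of which Plac8, the 1 called lower, made the most in controls (121 to 152 CPM and 4.53 to 11.5 CPM), and the 6 T and NK cell markers to 44.6 to 114 CPM and 43.4 to 194 CPM. Summed over 10 EC markers, the level was 494 to 1769 CPM in Smad4FF and 1316 to 1663 CPM in Smad4 cKO. In BMP9/10 control macrophages it was 53.1 to 254 CPM and in HSC-KO macrophages 11.7 to 58.6 CPM. The part of these cells in either macrophage comparison, or in the interaction below, was not tested.

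Because the macrophage comparisons were run separately, whether ligand loss and Smad4 loss differed was tested as an interaction over the 12 macrophage libraries, in which 2.94% of 18149 genes were called and 1.62% were called with a positive difference. Of 35 members tested, 7 were called, each with a more positive log2 FC in HSC-KO than in Smad4 cKO, and 6 of them were class II genes. The difference in log2 FC was 2.06 ± 0.38 SE for H2-Eb1 (adjusted p 0.0152), 1.68 ± 0.31 SE for Cd74 (adjusted p 0.0156), 1.85 ± 0.36 SE for H2-Aa and 1.79 ± 0.35 SE for H2-Ab1 (adjusted p 0.0205 for both). For Ciita it was 1.82 ± 0.41 SE (adjusted p 0.0361) and for H2-Oa 3.11 ± 0.67 SE (adjusted p 0.0315). H2-Ob, called in both comparisons, had a difference of 0.91 ± 0.26 SE that was not called by edgeR (adjusted p 0.0907, and 0.0494 by DESeq2). Neither was that of H2-DMb1 (1.13, adjusted p 0.0662, and 0.0178 by DESeq2). Leaving out 1 of the 12 libraries at a time, Cd74 and H2-Eb1 stayed called in all 12 fits. H2-Aa and H2-Ab1 lost the call without BMP9/10 control replicate 2, Smad4FF replicate 2 or 3 or Smad4 cKO replicate 1 (adjusted p up to 0.0618 and 0.0669). Ciita and H2-Oa lost it in 8 fits (adjusted p up to 0.0985 and 0.0815), Ciita keeping it without HSC-KO replicate 2, Smad4FF replicate 1 or Smad4 cKO replicate 2 or 3 and H2-Oa without BMP9/10 control, HSC-KO or Smad4FF replicate 1 or Smad4 cKO replicate 2. The knockouts differ in line, controls and sex besides the gene deleted, and these cannot be told apart. By Xist and Ddx3y the Smad4FF and Smad4 cKO mice were all male, while the HSC-KO and BMP9/10 control groups were mixed.

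ECs showed the larger ratios from far lower levels. Of 9 class II genes tested, 8 were called, all higher and all past a log2 FC of 1, while 20.1% of the 16053 genes tested were called, 10.3% called higher and 7.68% higher past that fold. The median log2 FC of the 9 was 3.62, and in all 9 the knockout libraries lay above the controls, as in 20.2% of all genes. The class summed to 30.9, 32.6 and 28.6 CPM in control ECs and to 408, 437 and 449 CPM in HSC-KO ECs, or from 0.00278% to 0.0479% of counts. In all, 8 class II genes were higher in HSC-KO macrophages and in HSC-KO ECs, a count given without the share of all genes higher in both.

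H2-Ab1 was at 10.4, 10.0 and 10.5 CPM in control ECs and at 230, 189 and 218 CPM in HSC-KO ECs (log2 FC 4.36 ± 0.14 SE, adjusted p 9.85e-06). H2-Aa was at 3.46, 4.27 and 2.67 CPM against 38.3, 48.7 and 40.9 CPM (log2 FC 3.62 ± 0.22 SE, adjusted p 8.98e-05). Cd74 was at 8.17, 10.6 and 8.15 CPM against 61.8, 99.8 and 85.9 CPM (log2 FC 3.20 ± 0.22 SE, adjusted p 1.35e-04). In ECs the I-A beta chain thus passed the invariant chain, with H2-Ab1 per Cd74, per kilobase, going from 0.766 to 1.78. H2-Eb1 was at 3.61, 2.75 and 3.27 CPM against 21.1, 25.3 and 26.4 CPM (log2 FC 2.92 ± 0.18 SE, adjusted p 9.71e-05), and per H2-Ab1 it went from 0.410 to 0.153, in the opposite direction to macrophages.

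The DM genes, which changed least in macrophages, had some of the largest ratios in ECs. H2-DMb1 was at 0.683, 1.39 and 0.896 CPM against 24.9, 32.8 and 37.7 CPM (log2 FC 5.01 ± 0.32 SE, adjusted p 1.07e-04). H2-DMa was at 2.65, 0.744 and 1.00 CPM against 17.0, 22.8 and 22.6 CPM (log2 FC 3.81 ± 0.48 SE, adjusted p 0.00159). H2-Ob rose less, from 1.85, 2.52 and 1.81 CPM to 10.5, 14.5 and 13.7 CPM (log2 FC 2.64 ± 0.23 SE, adjusted p 3.36e-04), so that H2-Ob per H2-DMb1 went from 0.682 to 0.128, again opposite to macrophages. Ciita was near the floor in controls, at 0, 0.129 and 0.217 CPM, and at 4.08, 2.83 and 3.10 CPM in HSC-KO ECs (log2 FC 4.86 ± 0.91 SE, adjusted p 0.00904). H2-DMb2 had 0, 11 and 8 counts against 44, 46 and 65 counts and was not called (log2 FC 2.74 ± 1.06 SE, adjusted p 0.116, and 0.0366 by DESeq2). H2-Oa and H2-Eb2 had 0 counts in all 6 EC libraries. The 8 calls held with any 1 library left out.

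**Figure D2:**
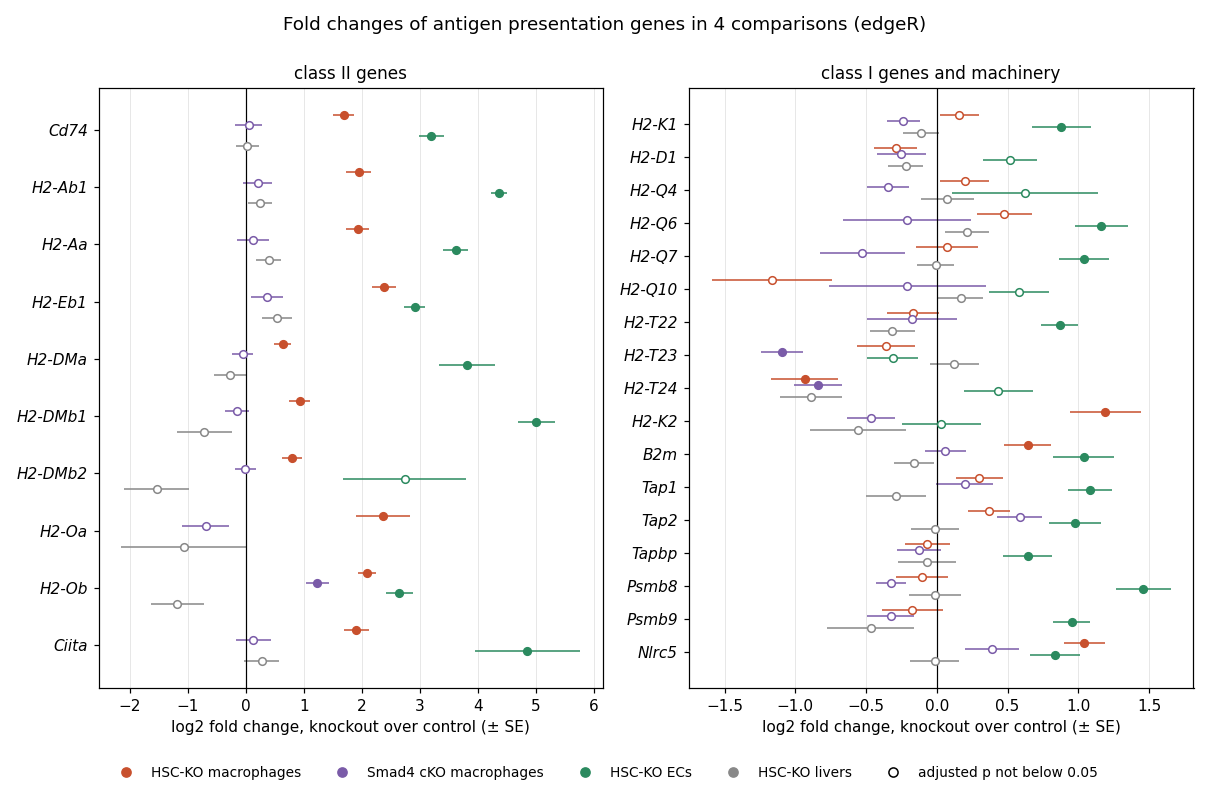
log2 fold change of knockout over control with its SE for 10 class II genes (left) and 17 class I and machinery genes (right) in the 4 comparisons, filled where the adjusted p is below 0.05. The left panel shows EC values of 2.64 to 5.01 for the called class II genes against 0.64 to 2.39 in HSC-KO macrophages, and the right panel shows called EC values of 0.64 to 1.46, with 0 of the livers' points filled in either panel.

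Macrophages hold far more class II transcript than ECs, so macrophage markers in the EC libraries are given beside these values. The macrophage gene Adgre1 was at 1.09, 0.566 and 0.869 CPM in control ECs and at 0, 0.433 and 0.0611 CPM in HSC-KO ECs, Csf1r at 8.44, 4.56 and 6.79 CPM against 0.435, 1.23 and 0.269 CPM, and Fcgr1 at 0 in the 3 HSC-KO libraries. Levels in ECs were also set as a percent of those in macrophages from mice of the same genotype, with each cell type scaled within its own 6 libraries. H2-Ab1 in ECs was at 0.162% in controls and 0.862% in HSC-KO, H2-DMb1 at 0.195% and 3.28%, and H2-Ob at 16.1% and 23.5%. On this scale Adgre1 was at 0.0832% and 0.0240% and Csf1r at 0.122% and 0.0203%. Over the whole lists, the 5 macrophage markers summed to 211 to 319 CPM in controls and to 61.5 to 105 CPM after ligand loss, of which Mertk, which ECs here also expressed, made 58.7 to 104 CPM in the latter. The 6 Kupffer cell markers summed to 301 to 328 CPM and 1.73 to 9.94 CPM. The 8 dendritic cell markers summed to 126 to 155 CPM in controls and 117 to 140 CPM in HSC-KO ECs, where Zbtb46 made 105 to 128 CPM, Clec9a 11.2 to 11.4 CPM and Batf3 0.424 to 0.753 CPM, and Flt3, Xcr1, Cd209a, Ccr7 and Siglech were at 0. The B cell list summed to 0.462 to 1.34 CPM in controls and at most 0.335 CPM in HSC-KO, and the T and NK cell list to 0.0543 to 0.366 CPM and at most 0.209 CPM. The monocyte list moved the other way, from 11.1 to 13.6 CPM to 84.5 to 116 CPM, of which Ly6c2 made 62.1 to 77.0 CPM in HSC-KO. Of its 4 markers, 2 were tested, and these 2 were called higher. The 10 EC markers summed to 14003 to 14433 CPM and 10260 to 11507 CPM. The part of the monocyte list's genes in the class II values was not tested.

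**Figure D3:**
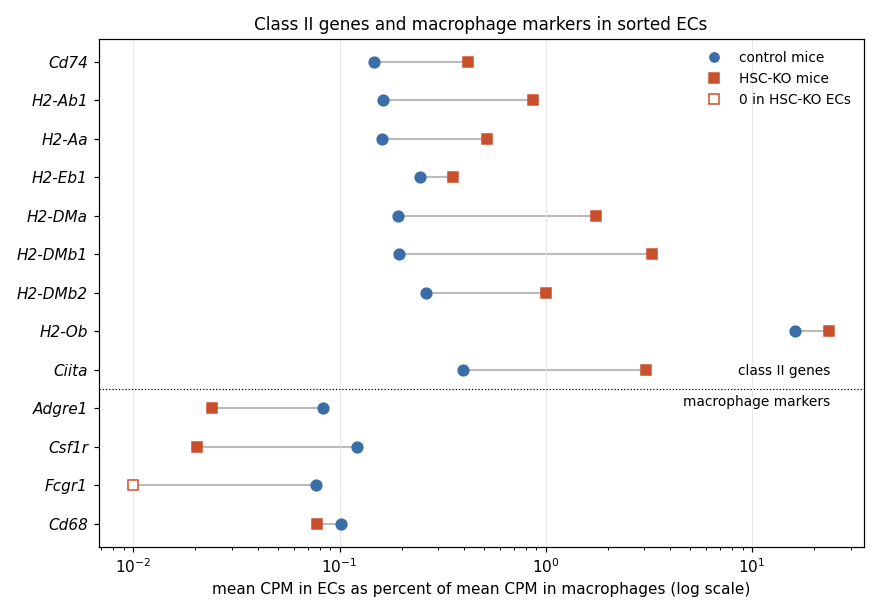
Mean CPM in ECs as a percent of mean CPM in macrophages of control mice (circles) and HSC-KO mice (squares), on a log axis, for 9 class II genes and 4 macrophage markers. Each cell type was scaled within its own 6 libraries, and an open square at the left edge stands for 0. The class II genes move to the right in HSC-KO mice, H2-DMb1 from 0.195% to 3.28%, and the markers move to the left, Adgre1 from 0.0832% to 0.0240%.

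An interaction over the 12 libraries of macrophages and ECs compared the responses to ligand loss, with 15.4% of 18213 genes called and 7.84% called in the direction of ECs. Of 36 members in the fit, 4 (H2-Bl, H2-M2, H2-Eb2 and H2-Oa) had 0 counts in every library of a group, so that no difference could be estimated. Of the other 32, 13 were called, each with a log2 FC that was more positive in ECs, of which 6 were class II genes. The macrophage minus EC difference was -4.07 ± 0.37 SE for H2-DMb1 (adjusted p 5.06e-05), -3.16 ± 0.53 SE for H2-DMa (adjusted p 0.00229), -2.97 ± 0.70 SE for Ciita (adjusted p 0.0155) and -2.40 ± 0.28 SE for H2-Ab1 (adjusted p 2.49e-04). For H2-Aa it was -1.68 ± 0.30 SE (adjusted p 0.0036) and for Cd74 -1.50 ± 0.31 SE (adjusted p 0.00746). H2-Eb1 and H2-Ob did not pass (-0.52 and -0.54, adjusted p 0.245 and 0.191). The EC controls started near 0, so the fold and the amount gained run opposite ways: the class gained more CPM in macrophages.

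Of 23 class I genes tested in HSC-KO macrophages, 4 were called higher and 1 lower, with a median log2 FC of 0.20, against the 9.29% called higher and 9.87% lower of all genes. The classical heavy chains H2-K1 (chr17:33996017-34000347) and H2-D1 (chr17:35262730-35267499) were not called. H2-K1 was at 3312, 3161 and 3639 CPM in controls and 3500, 4057 and 3743 CPM in HSC-KO (log2 FC 0.16 ± 0.14 SE, adjusted p 0.472), and H2-D1 at 5941, 5691 and 7217 CPM against 5120, 5227 and 5070 CPM (log2 FC -0.29 ± 0.15 SE, adjusted p 0.23). B2m (chr2:122147686-122153083), the light chain shared by class I molecules, was at 2428, 3203 and 3014 CPM against 4184, 5051 and 4266 CPM (log2 FC 0.64 ± 0.17 SE, adjusted p 0.0318), a call that was lost in all 6 fits without 1 library (adjusted p 0.056 to 0.0836) although the groups did not overlap. Nlrc5 (chr8:94434356-94527272) was at 34.5, 27.1 and 37.6 CPM against 66.2, 66.0 and 72.3 CPM (log2 FC 1.04 ± 0.15 SE, adjusted p 0.00259). The processing and loading genes Psmb8, Psmb9, Tap1, Tap2 and Tapbp had log2 FCs of -0.10, -0.17, 0.30, 0.37 and -0.07 and adjusted p of 0.131 or more.

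The non-classical and pseudogene entries gave the other 3 macrophage calls. H2-M2 (chr17:37480851-37483552) was at 2.66, 0.624 and 0.856 CPM in controls and 11.996, 12.98 and 58.4 CPM in HSC-KO (log2 FC 4.32 ± 0.84 SE, adjusted p 0.0109), with HSC-KO replicate 3 far above the other two, and it stayed called without any 1 library, at log2 FCs of 3.17 to 5.24. H2-K2 (chr17:33974659-33978827), annotated as a transcribed pseudogene, was at 4.24, 2.43 and 3.34 CPM against 8.35, 6.99 and 7.52 CPM (log2 FC 1.19 ± 0.25 SE, adjusted p 0.0157, and 0.061 without HSC-KO replicate 1). H2-T24 was lower, from 138, 156 and 266 CPM to 94.0, 103 and 95.5 CPM (log2 FC -0.93 ± 0.24 SE, adjusted p 0.0313), and lost its call without control replicate 2 or any HSC-KO replicate (adjusted p up to 0.103). Summed over all 31 heavy chain entries, the level was 10354 CPM in controls and 9585 CPM in HSC-KO.

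In Smad4 cKO macrophages 1 class I gene of 23 was higher and 2 were lower, against 3.71% and 4.03% of all genes. H2-T23 (chr17:36029773-36032855), which encodes Qa-1, a ligand of NK cell receptors, was at 49.6, 41.3 and 57.3 CPM in Smad4FF and 24.6, 22.2 and 22.6 CPM in Smad4 cKO (log2 FC -1.10 ± 0.15 SE, adjusted p 0.00494), and stayed called without any 1 library. In HSC-KO macrophages it was at 62.8, 70.4 and 48.5 CPM against 63.8, 70.5 and 99.2 CPM in their controls and was not called (log2 FC -0.36, adjusted p 0.267). H2-T24 was lower here too, from 150, 190 and 133 CPM to 91.1, 97.8 and 75.7 CPM (log2 FC -0.84 ± 0.17 SE, adjusted p 0.0252, up to 0.0913 and lost without Smad4FF replicate 1 or 2 or Smad4 cKO replicate 1 or 3). H2-M2 was higher, at 1.64, 0.952 and 1.26 CPM against 2.51, 5.19 and 3.15 CPM (log2 FC 1.496 ± 0.35 SE, adjusted p 0.0455), a call lost in all 6 fits without 1 library (adjusted p 0.0622 to 0.166). H2-Ob, H2-M2 and H2-T24 were thus the 3 members called in the same direction in both macrophage comparisons. The share of all genes called alike in both is not given here, so this count is a description.

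The classical and machinery genes were not called in Smad4 cKO macrophages. H2-K1 was at 4438, 5293 and 4678 CPM against 3916, 4250 and 4047 CPM (log2 FC -0.24, adjusted p 0.297), and B2m at 1776, 2182 and 1763 CPM against 1721, 2163 and 2081 CPM (log2 FC 0.06, adjusted p 0.858). Log2 FCs of H2-D1, Psmb8, Psmb9, Tapbp, Tap1 and Nlrc5 were -0.25, -0.32, -0.32, -0.12, 0.20 and 0.39. Tap2, at 10.8, 11.2 and 11.9 CPM against 14.5, 19.5 and 16.7 CPM, missed the threshold (log2 FC 0.59, adjusted p 0.0692) and passed it by DESeq2 (adjusted p 0.0464). H2-K2 was at 20.3, 28.2 and 20.4 CPM against 15.5, 17.8 and 16.5 CPM, and its difference between the macrophage comparisons, 1.71 ± 0.29 SE (adjusted p 0.0116), was the 1 class I interaction called; H2-K2 stood several times higher in Smad4FF than in BMP9/10 controls, which come from separate tables.

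Of 23 class I genes tested in ECs, 14 were called higher and 0 lower (edgeR; 17 had an unadjusted p below 0.05, as had 32.6% of all genes), 6 of them past a log2 FC of 1, with a median of 0.88, against the 10.3% of all genes called higher and 9.77% called lower. The 7 machinery genes were all called and 7 of 16 heavy chains were. Psmb8 (chr17:34197721-34201454), an immunoproteasome subunit, was at 374, 282 and 331 CPM in controls and 738, 976 and 1004 CPM in HSC-KO ECs (log2 FC 1.46 ± 0.19 SE, adjusted p 0.00195), and its partner Psmb9 at 60.6, 64.0 and 53.5 CPM against 102, 118 and 124 CPM (log2 FC 0.95 ± 0.13 SE, adjusted p 0.0025). The transporter genes Tap1 and Tap2 were at 111.1, 87.1 and 85.9 CPM against 182, 195 and 225 CPM and at 35.8, 43.8 and 31.6 CPM against 58.9, 76.7 and 83.7 CPM (log2 FC 1.08 and 0.98, adjusted p 0.00293 and 0.0091). Psmb9 and Tap1 overlap on opposite strands, and the sources used here do not say whether strand entered the counting. Tapbp was at 956, 1016 and 959 CPM against 1301, 1743 and 1537 CPM (log2 FC 0.64 ± 0.17 SE, adjusted p 0.0365), and lost its call in 5 of 6 fits without 1 library, the exception being HSC-KO replicate 1. Nlrc5 was at 28.3, 28.6 and 23.7 CPM against 38.8, 48.0 and 57.2 CPM (log2 FC 0.84 ± 0.18 SE, adjusted p 0.0144, and 0.0561 without control replicate 3).

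B2m was at 4272, 4889 and 4888 CPM in control ECs and 8440, 10869 and 9529 CPM in HSC-KO ECs (log2 FC 1.04 ± 0.22 SE, adjusted p 0.0141). H2-K1 was at 3467, 2606 and 3350 CPM against 5941, 5995 and 5402 CPM (log2 FC 0.88 ± 0.21 SE, adjusted p 0.0222), and lost its call without control replicate 2 or 3 or HSC-KO replicate 2 or 3 (adjusted p up to 0.0621). H2-D1 was at 4554, 3923 and 4297 CPM against 6126, 6088 and 6067 CPM and was not called by edgeR (log2 FC 0.52 ± 0.19 SE, adjusted p 0.102, and 0.0015 by DESeq2), though the groups did not overlap. Of 7 Q genes tested, which include the Qa-2 gene H2-Q7, 4 were called, with log2 FCs of 1.16 for H2-Q6 (559, 379 and 429 CPM against 977, 1080 and 1001 CPM, adjusted p 0.00492), 1.16 for H2-Q5, 1.04 for H2-Q7 and 0.88 for H2-Q1. H2-Q10, H2-Q4 and H2-Q2 were not called (log2 FC 0.58, 0.62 and 2.06, adjusted p 0.0996, 0.463 and 0.412). Those 4 calls are uncertain one by one, since H2-Q6 and H2-Q7 share 27.01% and 25.09% of their 50-base exon stretches with other members and H2-Q5 36.45%. H2-T22 and H2-T10, ligands of some gamma-delta T cell receptors, were at 86.8, 85.9 and 70.7 CPM against 137, 150 and 157 CPM and at 4.37, 5.58 and 5.21 CPM against 7.91, 8.20 and 11.7 CPM (log2 FC 0.87 for both, adjusted p 0.00379 and 0.0298), and they share 31.25% and 31.7% of their 50-base exon stretches with each other, so these 2 calls are uncertain one by one too. The call of H2-T10 was lost in 5 of 6 fits without 1 library, the exception again being HSC-KO replicate 1. H2-T23, lower in Smad4 cKO macrophages, was at 117, 104 and 73.0 CPM against 76.4, 80.8 and 79.0 CPM (log2 FC -0.31, adjusted p 0.274). With all 31 heavy chain entries summed into 1 feature, which leaves out the question of how reads were split, the log2 FC in ECs was 0.72 ± 0.22 SE and was not called (adjusted p 0.0619), and in HSC-KO macrophages it was -0.11 (adjusted p 0.669).

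**Figure D4:**
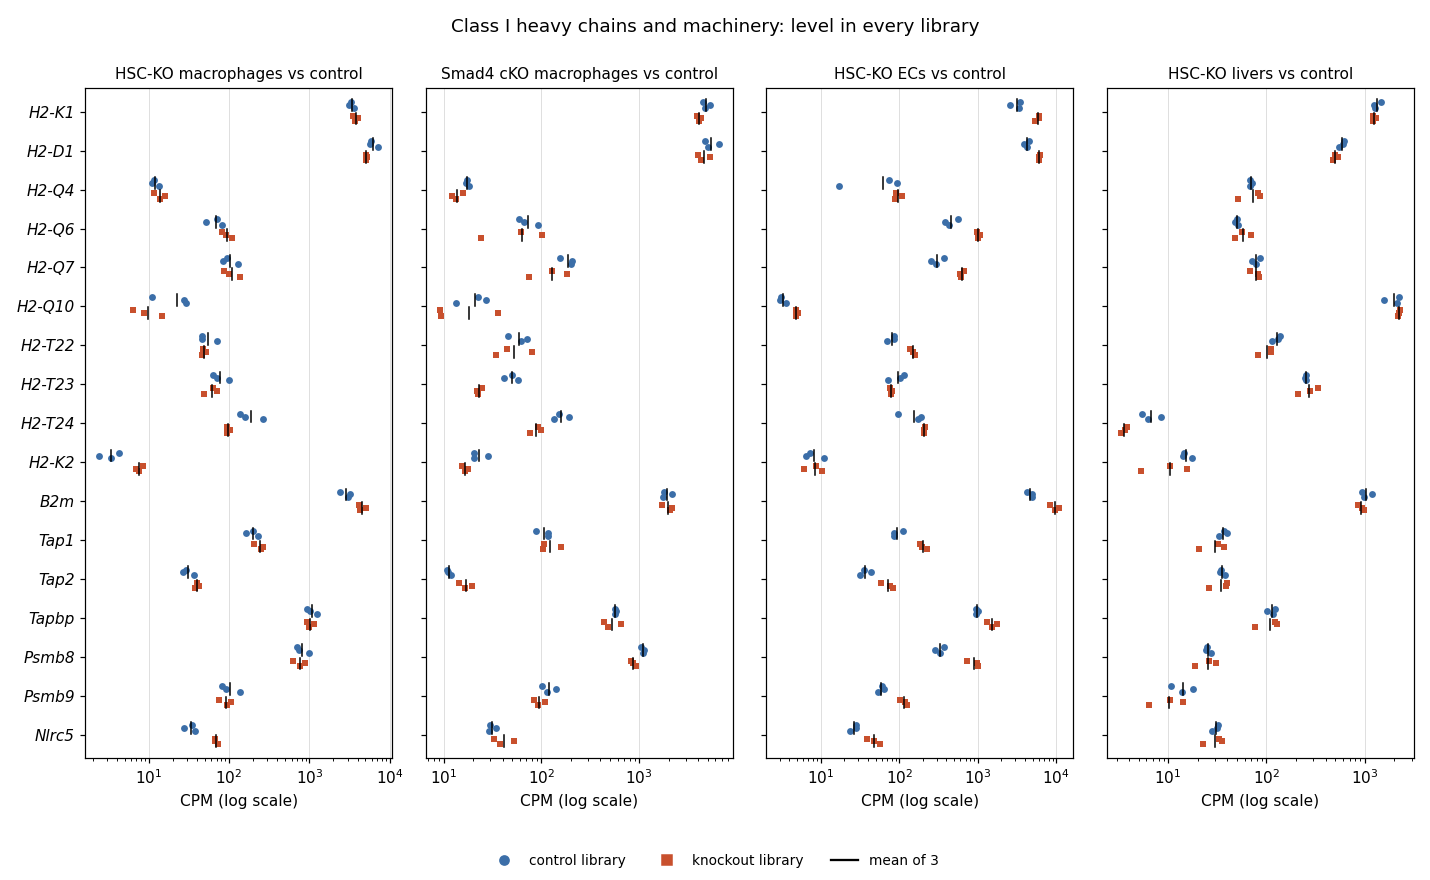
Level of 17 class I heavy chain and machinery genes in every library, as TMM-scaled CPM on a log axis, with circles for control libraries, squares for knockout libraries and a bar for the mean of 3. In ECs the squares of B2m (8440 to 10869 CPM) and of the 4 genes Psmb8, Psmb9, Tap1 and Tap2 lie to the right of all circles, while in HSC-KO macrophages those of H2-K1 and Psmb8 overlap the circles.

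Between the macrophage and the EC response, 7 class I genes differed, all with the more positive log2 FC in ECs. The macrophage minus EC difference was -1.55 ± 0.28 SE for Psmb8 (adjusted p 0.00366), -1.11 ± 0.27 SE for Psmb9 (adjusted p 0.0188), -1.02 ± 0.24 SE for H2-T22 and -1.01 ± 0.24 SE for H2-Q1 (adjusted p 0.0155 for both). H2-D1, H2-T24 and H2-Q10 also passed, at -0.80, -1.36 and -1.74 (adjusted p 0.0306, 0.0329 and 0.0398), and lost the call in 7, 8 and 10 of 12 fits without 1 library (adjusted p up to 0.0755, 0.0733 and 0.0957). H2-D1 lost it without macrophage control replicate 1 or 3, macrophage HSC-KO replicate 1 or 3, EC control replicate 2 or 3 or EC HSC-KO replicate 2. H2-T24 kept it without macrophage control replicate 1 or 2 or EC control replicate 2 or 3, and H2-Q10 without macrophage control replicate 1 or macrophage HSC-KO replicate 3. In the macrophage libraries H2-Q10 was at 10.9, 27.2 and 28.7 CPM in controls and 6.33, 8.82 and 14.6 CPM in HSC-KO, beside 4 hepatocyte markers that summed to 202, 571 and 747 CPM and 285, 348 and 452 CPM in the same order, and their part in its value was not tested. H2-K1, B2m, Tap1, Tap2, Tapbp and Nlrc5 were not called in this edgeR test. DESeq2 called H2-K1, Tap1 and Tapbp among them (adjusted p 0.00241, 0.0216 and 0.0129). Class I levels in ECs ranged widely around those in macrophages, with each cell type scaled within its own 6 libraries. H2-K1 in ECs stood at 93.2% of the macrophage level in controls and 153% in HSC-KO, and Psmb8 at 40.5% and 120%. H2-Q6 was at 671% and 1078%, H2-Q4 at 520% and 700%, and H2-Q10 at 14.8% and 49.8%, while H2-M2 was at 0 in ECs.

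In whole livers, where hepatocytes make most of the RNA, 0 of 11 class II genes and 0 of 24 class I genes were called by edgeR, against 2.83% of the 17118 genes tested. At an unadjusted p below 0.05 there were 2 class II genes and 1 class I gene, against 12.9% of all genes, and DESeq2 called 0 and 1. Cd74 was at 94.4, 81.6 and 103 CPM in controls and 113, 104 and 68.0 CPM in HSC-KO livers (log2 FC 0.03 ± 0.20 SE, adjusted p 0.98). H2-Ab1 was at 33.4, 26.3 and 33.1 CPM against 43.6, 40.5 and 26.4 CPM (log2 FC 0.25, adjusted p 0.713), H2-Aa had a log2 FC of 0.40 (adjusted p 0.527), and H2-Eb1, at 24.1, 21.6 and 28.9 CPM against 48.5, 36.3 and 23.7 CPM, one of 0.54 ± 0.25 SE (adjusted p 0.444). HSC-KO replicate 3, the 1 male liver by Xist and Ddx3y, was the lowest HSC-KO library for these 4 genes. H2-Ob and H2-DMb2, higher in the sorted macrophages, were at 1.83, 1.45 and 0.720 CPM against 0.429, 0.654 and 0.682 CPM and at 0.987, 1.03 and 1.26 CPM against 0.388, 0.595 and 0.139 CPM (log2 FC -1.18 and -1.54, adjusted p 0.317 and 0.278). H2-DMa, H2-DMb1, H2-Oa and Ciita had log2 FCs of -0.27, -0.72, -1.07 and 0.28 (adjusted p 0.630 or more). The class II sum was 193 ± 22.6 CPM in the controls and 219 ± 58.7 CPM in the knockout (SD, n = 3). Beside it, the 5 macrophage markers summed to 114 to 197 CPM and 40.5 to 53.4 CPM, and the 6 Kupffer cell markers to 233 to 415 CPM and 0.991 to 2.92 CPM. The 6 B cell markers summed to 3.97 to 9.14 CPM and 1.57 to 2.26 CPM, and the 8 dendritic cell markers to 13.3 to 18.9 CPM and 10.2 to 13.02 CPM with 0 called by edgeR (2 at an unadjusted p below 0.05). The part of these cells in the class II values was not tested in livers.

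Among class I genes of the livers, H2-Q10 (chr17:35470089-35474563), a secreted form made by hepatocytes, was at 2243, 1579 and 2104 CPM against 2258, 2241 and 2164 CPM (log2 FC 0.17, adjusted p 0.761), far above its level in the sorted cells. H2-K1 was at 1471, 1253 and 1284 CPM against 1214, 1286 and 1212 CPM (log2 FC -0.11), H2-D1 had a log2 FC of -0.22 (adjusted p 0.538), and B2m, at 933, 1176 and 988 CPM against 844, 930 and 992 CPM, one of -0.16. H2-T24, at 5.39, 8.40 and 6.20 CPM against 3.86, 3.62 and 3.30 CPM, did not overlap between the groups and was the gene called by DESeq2 (adjusted p 0.0132) and not by edgeR (log2 FC -0.89 ± 0.22 SE, adjusted p 0.0962). Nlrc5, Psmb8, Psmb9, Tap1, Tap2 and Tapbp had log2 FCs of -0.02, -0.01, -0.47, -0.29, -0.01 and -0.07 (adjusted p 0.628 or more). The class I genes summed to 5844 CPM in the controls and 5782 CPM in the knockout.

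Other genes of the pathway, from a list of 38 proteases, loading factors, CD1 molecules, proteasome subunits and regulators of which 36 matched the tables, were mostly not called in macrophages. In HSC-KO macrophages 1 of 36 was called higher and 8 lower (median log2 FC -0.28), against 9.29% and 9.87% of all genes. The endosomal reductase gene Ifi30 was at 712, 636 and 629 CPM against 144, 169 and 180 CPM (log2 FC -2.002, adjusted p 1.26e-04), and Cd1d1, whose product presents lipids, at 138, 139 and 129 CPM against 43.3, 40.1 and 43.4 CPM (log2 FC -1.68). The cathepsin genes Ctsl and Ctsb were lower too (log2 FC -1.19 and -1.10), and the interferon-gamma receptor gene Ifngr2 was the 1 called higher (log2 FC 0.66, adjusted p 0.0184). The 5 macrophage markers in these libraries summed to 8410 to 9949 CPM in controls and 5464 to 6175 CPM in HSC-KO, with 3 called lower, and to 6161 to 7453 CPM in Smad4FF and 4827 to 5962 CPM in Smad4 cKO, with 1 called lower, and their part in the pathway values was not tested. In Smad4 cKO macrophages 0 of 36 were higher and 8 lower, against 3.71% and 4.03% of all genes (14 of 36 at an unadjusted p below 0.05, against 21.4% of all genes), among them Cd40, Cd1d1, the protease gene Lgmn and Spi1 (log2 FC -1.45, -1.23, -1.16 and -0.78).

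In ECs 10 of 34 pathway genes tested were higher and 6 lower, against 10.3% and 9.77% of all genes. The costimulatory receptor gene Cd40 was at 5.91, 7.31 and 3.92 CPM in controls and 41.0, 47.3 and 49.8 CPM in HSC-KO (log2 FC 3.01, adjusted p 2.47e-04), and Cd1d1 at 4.87, 5.35 and 4.87 CPM against 32.9, 39.9 and 38.9 CPM (log2 FC 2.89, adjusted p 6.13e-05), so Cd1d1 was called in opposite directions in ECs and macrophages. Cd1d2 had 0 counts in control ECs and was at 0.573, 0.879 and 0.599 CPM in HSC-KO. Lgmn was lower, from 586, 701 and 731 CPM to 199, 71.4 and 48.7 CPM (log2 FC -2.66, adjusted p 0.00917). In livers 0 of 36 were higher and 3 lower, which were Spi1, Lgmn and Ifi30 (log2 FC -1.96, -1.33 and -1.06), with 2.83% of all genes called in either direction. The 5 macrophage markers had a lower summed level there, with 3 of 5 called lower, from 114 to 197 CPM to 40.5 to 53.4 CPM, and their part in these 3 values was not tested.

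Of the 53 members, 36 were tested in at least 1 comparison and 8 of these were called in none. Another 6 had counts but too few to test, with at most 38 counts over all 24 libraries: H2-M10.2, H2-M5, H2-M6-ps, H2-T3, H2-Ea-ps and H2-Pb. The other 11, which include H2-Q3, H2-Pa and most H2-M10 genes, had 0 counts in all 24 libraries. Some heavy chain values in single libraries stood apart from their group: H2-Q4 was at 74.7 and 95.0 CPM in control ECs 1 and 2 and at 17.2 CPM in control 3. H2-Q4 shares part of its exons with an antisense gene. H2-Ke6, the member of neither class, was at 7.05 CPM in control EC 1 and 0.905 and 1.29 CPM in the other controls, and 86.4% of its exon bases overlap another gene on the same strand. It was called in none of the 4 comparisons, at log2 FCs of 0.14, 0.52, -1.66 and -0.05.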

How the data were processed

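RNA from sorted cells (RNeasy) and whole livers (TRIzol) was sequenced by the authors. The deposited values are whole-number counts of reads per gene, which the authors made with FastQC, HISAT2 and featureCounts on mm10 (GRCm38), per the submitters' processing notes. Versions and strand setting are not given in the sources used here, and the kit is named differently in the labels and the methods. Each of the 4 tables holds 6 libraries, and 0 columns were left unused.

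Each table was fitted with edgeR 4.0.16 (R 4.3.3, limma 3.58.1): filterByExpr (minimum count 10, minimum total 15), TMM factors, and the quasi-likelihood test with Benjamini-Hochberg adjustment over all genes tested. The study's own test was DESeq2; DESeq2 1.42.0 served here as an alternative. Interactions were fitted over 12 libraries of 2 tables, without symbols that occur more than once. The fits were tested on simulated counts. SEs were derived from the F statistic, and levels per kilobase from the GENCODE vM21 exon length. Intervals, floors and p-values cover these libraries only.

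The members and gene lists were chosen with earlier results of these data known. Named genes were Cd74, Ciita, the H2-A, H2-E, H2-DM and H2-O chains, B2m, H2-K1, H2-D1, Tap1, Tap2, Tapbp, Nlrc5, Psmb8 and Psmb9, then at most 8 other called members and 4 called pathway genes per comparison, by largest log2 fold change. March1 and March8 had no matching symbol in the tables. Alternatives were DESeq2, other scalings and filters, a fold threshold in the test, the replicate number as a block, each library left out, heavy chains summed, all 12 macrophage libraries in 1 fit, Xist as a covariate and limma voom with the mouse as a block.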

Additional observations from a re-analysis of the deposited data

Results flagged for a closer look

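The following genes responded differently in 2 comparisons by a test of the difference itself (edgeR's quasi-likelihood interaction test, adjusted over all genes tested). Macrophages of HSC-KO and Smad4 cKO mice differed in 7 genes, given as the log2 FC in HSC-KO minus that in Smad4 cKO. It was 1.68 for the invariant chain gene Cd74, 1.82 for the coactivator gene Ciita, 1.85 for H2-Aa, 1.79 for H2-Ab1, 2.06 for H2-Eb1, 3.11 for the H2-O chain gene H2-Oa and 1.71 for the pseudogene H2-K2.

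Macrophages and ECs of HSC-KO mice differed in 13 genes, given as the log2 FC in macrophages minus that in ECs. Among class II genes it was -4.07 for H2-DMb1, -3.16 for H2-DMa, -2.97 for Ciita, -2.40 for H2-Ab1, -1.68 for H2-Aa and -1.504 for Cd74. Among class I genes it was -1.74 for H2-Q10, -1.55 for Psmb8, -1.36 for H2-T24, -1.11 for Psmb9, -1.02 for H2-T22, -1.01 for H2-Q1 and -0.80 for H2-D1. Within each edgeR test the called differences had 1 direction, more positive in HSC-KO than in Smad4 cKO macrophages and more positive in ECs than in macrophages. By DESeq2, H2-K2 was called with the more positive log2 FC in macrophages than in ECs (difference 1.14, adjusted p 0.0351).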

How the results depend on the processing

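None of the named genes' called values changed direction under any alternative. Class II calls in ECs (8) ran from 7 to 9 over the alternatives, and in HSC-KO macrophages (10) only the test against a fold moved the count by over 1.5 times. Tested against a log2 FC of 1 with glmTreat, class II calls were 6 in HSC-KO macrophages (10 in the test used above) and 0 in Smad4 cKO macrophages (1), class I calls were 1 (5), 0 (3) and 0 (14) in HSC-KO macrophages, Smad4 cKO macrophages and ECs, and the interactions 0 (7) and 3 (13). With heavy chains summed into 1 feature, class I calls were 2, 0 and 7 of 8 in the same order. DESeq2 called 1 class I gene in livers (0). With 1 library left out, class II calls ranged from 7 to 11 in HSC-KO macrophages and from 0 (without Smad4FF replicate 3) to 1 in Smad4 cKO, class I calls from 2 to 6 in HSC-KO macrophages (2 or 3 without BMP9/10 control replicate 2 or any HSC-KO replicate), from 1 to 2 in Smad4 cKO and from 11 to 14 in ECs, and the interactions from 3 (without BMP9/10 control replicate 2, Smad4FF replicate 2 or 3 or Smad4 cKO replicate 1) to 8 and from 10 to 13; livers stayed at 0. Same-numbered libraries did not deviate together in every pair (correlations -0.18 to 0.22), so the replicate numbers were not taken as pairs; with the replicate number as a block, class II calls were 10, 1, 8 and 0 and class I calls 6, 2, 14 and 0 in HSC-KO macrophages, Smad4 cKO macrophages, ECs and livers, and the interactions 8 and 14. Library size alone, which moved the median log2 FC of all genes by over 0.1 in ECs (to 0.30), Smad4 cKO macrophages (to 0.19), livers (to -0.12) and the interactions with Smad4 cKO (0.08 to -0.04) and ECs (0.06 to -0.15), gave 18 class I calls in ECs. Higher calls among all genes went from 1661 of 3229 to 3031 of 3968 in ECs, from 650 of 1356 to 1051 of 1589 in Smad4 cKO, and from 294 of 534 to 236 of 533 and 1380 of 2808 to 1030 of 3223 in the interactions. With Xist as a covariate, B2m in HSC-KO macrophages (adjusted p 0.0705) and H2-T10 in HSC-KO ECs (adjusted p 0.0619) were not called. With limma voom in place of edgeR and the mouse as a block, both changed at once, 15 members differed between macrophages and ECs (correlation within a mouse -0.11). The cause of these shifts was not tested. At these depths a gene under 3 counts in a library, such as H2-Oa in ECs, was not detectable.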
